A study of Mus musculus with 27 samples.

Results

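IL-4 acts on B cells through its receptor, the kinases JAK1 and JAK3 and the transcription factor STAT6, and the genes followed here are the receptor chains, this kinase and this factor, known targets of STAT6, and the SOCS genes that restrain the pathway. The 10 genes were taken by symbol from the deposited count tables: Il4ra, Il13ra1, Jak1, Stat6, Fcer2a, Il4i1, Cish, Socs1, Socs2 and Socs3. All 10 were found among the 54532 genes of each table, and all 10 passed the filter on low counts in every comparison. The samples were splenic B cells of wild-type C57BL6 mice, isolated by negative selection, cultured for 3 h and measured by poly-A RNA sequencing in 27 libraries. Experiment 1 had 5 groups of 4 libraries, and experiment 2 had 7 conditions with 1 library each.

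Experiment 1 compared unstimulated B cells with B cells given LPS, B cells given IL-4 and an antibody to CD40 (IL4+anti-CD40), and the same 2 stimulations after addition of 1 μM disulfiram (DSF). The stimulated groups without DSF received vehicle. LPS, a bacterial cell wall component sensed by Toll-like receptors, served as the T-cell-independent stimulus, and IL4+anti-CD40 stood in for help by T cells. Since IL-4 and anti-CD40 were always given together, their effects cannot be told apart. DSF is a drug used against alcohol dependence that blocks aldehyde dehydrogenase. Experiment 2 held the same 5 conditions and added ibrutinib, an inhibitor of the kinase BTK, at 1 μM per the labels with each stimulus. The study describes the libraries of experiment 1 as biologically independent samples, but whether each came from a separate mouse is not given in the sources used here.

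IL-4 binds the receptor chain encoded by Il4ra, which pairs with the common gamma chain on lymphocytes or with the chain encoded by Il13ra1 on other cells. The receptor-bound kinases, JAK1 among them, then phosphorylate STAT6, which dimerizes, enters the nucleus and switches on genes such as Fcer2a, the gene of the low-affinity IgE receptor CD23, Il4i1, which encodes a secreted amino acid oxidase, and Il4ra itself. The proteins of the SOCS family, of which CISH was the founding member, are induced by cytokine signals and limit them. SOCS1 and SOCS3 block JAK kinases directly, CISH and SOCS2 are best known for restraining STAT5 signals, and all 4 recruit a ubiquitin ligase through their SOCS box.

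STAT dimers bind a palindrome, and the letters between its arms differ: STAT5 and most STATs prefer TTC and GAA with 3 free bases between them, and STAT6 favours 4. Promoters from RefSeq on GRCm38.p6 (250 bases before to 50 after each start) were matched to 9 of the 10 genes, which gave 11 windows. Both spacings read the same on either strand. The spacing of 3 was found in 8.3% of all 32851 windows and that of 4 in 6.95%. Among the 10 genes, Cish and Socs3 held the first and Fcer2a the second, and these are the stretches shown, 5′ to 3′, with the matched letters in capitals.
Cish, chr9:107296654-107296683, + strand: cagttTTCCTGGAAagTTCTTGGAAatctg
Socs3, chr11:117969501-117969530, − strand: gaaaccagccTTCTTAGAAgggaggggggg
Fcer2a, chr8:3691010-3691039, − strand: agagggtgaaTTCCCAAGAAgggccaggag
Cish carried the palindrome with 3 free bases 2 times within 30 bases, and 0.457% of all windows held 2 or more copies. These Cish copies began at its RefSeq start and 11 bases after it, not before it. The windows of the other matched genes held neither spacing. The copy of Socs3 began 154 bases before its RefSeq start. The copy of Fcer2a, with 4 free bases, lay 168 bases before the second of its 3 RefSeq starts. All these stretches lie inside the gene spans given below. Those spans are from GENCODE and begin upstream of the RefSeq starts named for these matches. A match of letters is a description and not a measured binding site.

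Total counts were between 17804851 and 23632992 per library in experiment 1 and between 16049295 and 24619776 in experiment 2. Levels are given as the FPKM that the authors deposited beside the counts, which scale fragment counts by gene length and library depth, and changes as log2 fold changes from edgeR's quasi-likelihood test on the counts of the 8 libraries compared, with their standard error (SE) and a Benjamini-Hochberg adjusted p over all genes tested. A gene is said to have risen or fallen when that adjusted p was under 0.05. The unstimulated libraries were the least alike, since 25.5% of 15575 genes varied by 2-fold or more among them, against 13% to 17.3% in the other groups. They fell into a pair of pairs, with libraries 1 and 2 on one side and libraries 3 and 4 on the other. Between these pairs 2174 genes differed by 2-fold or more, against 259 to 738 for the same split in the other groups. The summed level of 8 B cell markers, all of which were detected in every group, was 5844 to 5900 CPM (counts scaled by library size) in the first pair and 9061 to 9165 CPM in the second, and 4349 to 4666 CPM with IL4+anti-CD40. Of the genes followed here, Fcer2a was 2.69-fold and Il4ra 2.46-fold higher in libraries 3 and 4 than in libraries 1 and 2, and Socs2 was 2.31-fold higher in libraries 1 and 2. Results against unstimulated B cells that turn on this split are therefore given against each pair as well, a choice made after seeing the data.

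**Figure D1:**
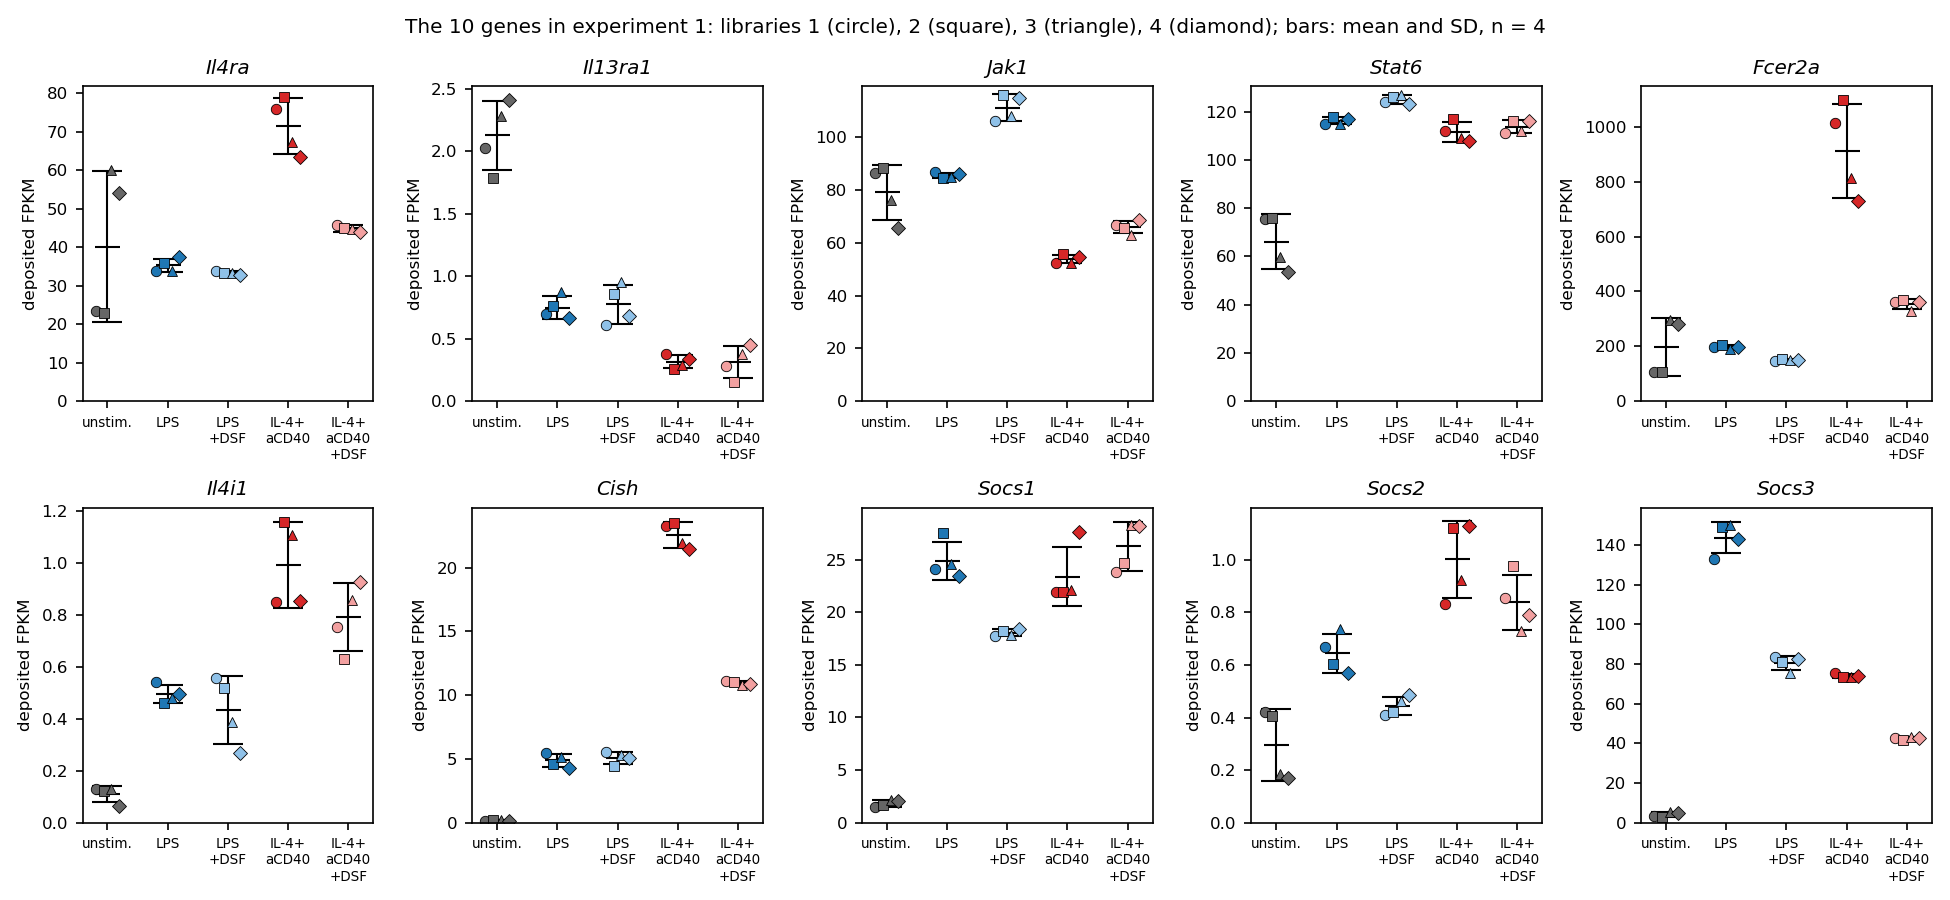
Deposited FPKM (vertical axes, linear from 0) of the 10 genes in each of the 20 libraries of experiment 1 (aCD40 on the axes stands for anti-CD40), with 1 symbol shape per library number and bars for the mean and SD of 4 libraries. Fcer2a, Il4ra and Cish are highest with IL4+anti-CD40, Socs3 is highest with LPS, Il13ra1 is highest in unstimulated B cells, and unstimulated libraries 3 and 4 stand above libraries 1 and 2 for Il4ra and Fcer2a.

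With IL4+anti-CD40, 8 of the 10 genes rose and 2 fell against unstimulated B cells, where 30.4% of all 14433 genes tested rose and 32.1% fell. The median log2 fold change of the 10 genes was 2.00, against -0.04 over all genes tested. With LPS, 6 rose, 1 fell and 3 were not called, where 29.6% of 14477 genes rose and 33.3% fell, and the medians were 0.98 and -0.05. Cish, Socs3 and Socs1 had the largest changes under both stimuli, Fcer2a rose with IL4+anti-CD40, and Il13ra1 fell under both. The LPS and IL4+anti-CD40 comparisons share the unstimulated libraries, so each is given with its own values. With counts scaled by library totals alone, 3454 genes rose and 5574 fell with IL4+anti-CD40 and 2903 rose and 6387 fell with LPS, and the counts of the 10 genes were 7 higher and 2 lower and 6 higher and 1 lower.

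Il4ra (chromosome 7 of GRCm38, 125552120 to 125579474, + strand), the chain that binds IL-4, stood at 76.0, 79.0, 67.3 and 63.6 FPKM in the 4 libraries with IL4+anti-CD40. The unstimulated libraries held 23.5, 23.0, 60.2 and 54.1 FPKM, so every stimulated library lay above every unstimulated one, though library 4 of the stimulated group exceeded unstimulated library 3 by little. The change was 0.84 on the log2 scale (SE 0.323, adjusted p = 0.0451 from edgeR). Against unstimulated libraries 1 and 2 alone it was 1.62 (edgeR, adjusted p = 1.77e-06), and against libraries 3 and 4 alone 0.35 (0.0089). The call at 0.0451 was lost when unstimulated library 1 or 2 was left out, with log2 fold changes of 0.65 and edgeR's adjusted p = 0.0834 and 0.081, and when any 1 of the 4 IL4+anti-CD40 libraries was left out, with adjusted p from 0.0622 to 0.0946. With LPS, Il4ra stood at 33.8, 36.0, 33.9 and 37.4 FPKM, between the pairs of unstimulated libraries, and was not called (log2 fold change -0.18, SE 0.319, edgeR adjusted p = 0.637). Its direction with LPS depended on the pair: 0.63 against libraries 1 and 2 (edgeR, adjusted p = 3.85e-11) and -0.67 against libraries 3 and 4 (1.73e-10).

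Il13ra1 (chromosome X, 36112110 to 36171259, + strand), the partner chain that lets IL-4 and IL-13 act on cells outside the lymphoid lineage, was a low gene that fell under both stimuli. Its FPKM were 2.03, 1.79, 2.28 and 2.41 in unstimulated B cells, 0.664 to 0.875 with LPS and 0.257 to 0.378 with IL4+anti-CD40, and these ranges did not overlap. With LPS it fell by 1.49 on the log2 scale (SE 0.155, edgeR adjusted p = 5.3e-05) and by 2.73 with IL4+anti-CD40 (SE 0.19, adjusted p = 6.84e-06), from 173 to 210 counts down to 20 to 30 counts in the latter. Myeloid markers were lower as well: the summed level of 8 such genes was 545 to 671 CPM in unstimulated libraries, 151 to 174 CPM with LPS and 173 to 197 CPM with IL4+anti-CD40. Of these 8, 5 and 6 were called lower, where 33.3% and 32.1% of all genes fell, and every one was detected in each group. Of 8 B cell markers, 4 and 5 were called lower. The myeloid sum was not lower with IL4+anti-CD40 than with LPS, whereas Il13ra1 was. The part of the myeloid markers in the fall of Il13ra1 was not tested. In bulk samples such as these, fewer cells of a type and less RNA per cell cannot be told apart.

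Jak1 and Stat6 carry the signal from the receptor to the nucleus. Jak1 (chromosome 4, 101152367 to 101265282, − strand) stood at 86.4, 88.3, 76.1 and 65.7 FPKM in unstimulated B cells and at 52.5, 55.7, 52.4 and 54.8 FPKM with IL4+anti-CD40. Every stimulated library lay below every unstimulated one, and Jak1 fell by 0.53 on the log2 scale (SE 0.0931, edgeR adjusted p = 0.000981). With LPS it stood at 84.6 to 86.8 FPKM, inside the unstimulated range, and was not called (log2 fold change 0.13, SE 0.0872, adjusted p = 0.219). Against unstimulated libraries 3 and 4 alone the LPS value was 0.30 (edgeR, adjusted p = 2.73e-05), and against libraries 1 and 2 it was -0.00 (0.984). Stat6 (chromosome 10, 127642986 to 127660957, + strand) rose by like amounts under both stimuli, from 75.6, 75.8, 59.7 and 53.7 FPKM to 115 to 118 FPKM with LPS and 108 to 117 FPKM with IL4+anti-CD40. Its log2 fold changes were 0.83 (SE 0.106, edgeR adjusted p = 0.000176) and 0.78 (SE 0.111, adjusted p = 0.000297). Stat6 overlaps the antisense gene Nab2, which had 387 to 1030 counts in experiment 1 against 5395 to 12059 for Stat6. The strand setting of the authors' counting is not given in the sources used here.

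Fcer2a (chromosome 8, 3681737 to 3694175, − strand), the gene of CD23, had the highest FPKM of the 10 genes in every group. In unstimulated B cells it stood at 108, 107, 297 and 280 FPKM, and with IL4+anti-CD40 at 1012, 1098, 812 and 729 FPKM. The lowest stimulated library was thus well above the highest unstimulated one, and the log2 fold change was 2.22 (SE 0.378, edgeR adjusted p = 0.000841). The rise was 3.09 against unstimulated libraries 1 and 2 alone and 1.68 against libraries 3 and 4 alone (edgeR, adjusted p = 1.5e-06 and 1.26e-05). With LPS, Fcer2a stood at 198, 206, 192 and 198 FPKM, in the gap between the unstimulated pairs, and was not called (log2 fold change 0.01, SE 0.347, adjusted p = 0.982). As with Il4ra, the LPS direction depended on the pair, with 0.91 against libraries 1 and 2 and -0.51 against libraries 3 and 4 (edgeR, adjusted p = 3.84e-15 and 2.54e-09).

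Il4i1 (chromosome 7, 44816387 to 44840809, + strand), the secreted oxidase that consumes aromatic amino acids, was measured with few counts. It went from 0.0644 to 0.129 FPKM (6 to 14 counts) in unstimulated B cells to 0.463 to 0.542 FPKM with LPS and 0.849 to 1.16 FPKM with IL4+anti-CD40, and the ranges did not overlap. It rose by 2.15 (SE 0.238, edgeR adjusted p = 7.48e-05) and by 3.16 on the log2 scale (SE 0.255, adjusted p = 1.37e-05). Its locus overlaps Tbc1d17, Atf5 and, on the same strand, Nup62, each with more counts than Il4i1 (Nup62 1392 to 7918, Il4i1 at most 100), so the share of reads given to Il4i1 is uncertain.

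Among the feedback inhibitors, Cish (chromosome 9, 107296026 to 107302784, + strand) was nearly silent without stimulus and had the largest change of the 10 genes with IL4+anti-CD40. Its 4 unstimulated libraries held 0.146, 0.252, 0.182 and 0.15 FPKM (22 to 42 counts). With IL4+anti-CD40 they held 23.3, 23.5, 21.9 and 21.5 FPKM, and with LPS 5.43, 4.64, 5.19 and 4.26 FPKM. The groups stood far apart without overlap, in the order IL4+anti-CD40, LPS, unstimulated. The log2 fold change was 6.96 with IL4+anti-CD40 (SE 0.16, edgeR adjusted p = 1.07e-07) and 4.75 with LPS (SE 0.178, adjusted p = 2.67e-07). Cish was also close in both unstimulated pairs, so that the IL4+anti-CD40 value was 6.83 against libraries 1 and 2 and 7.10 against libraries 3 and 4.

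Socs3 (chromosome 11, 117966079 to 117970047, − strand), which acts on JAK kinases bound to receptors of the gp130 family, showed the opposite order of stimuli. It stood at 3.27, 2.74, 5.19 and 5.0 FPKM in unstimulated B cells, at 133, 149, 150 and 143 FPKM with LPS and at 75.7, 73.5, 73.7 and 74.0 FPKM with IL4+anti-CD40. The rise was 5.16 on the log2 scale with LPS (SE 0.232, edgeR adjusted p = 6.31e-07) and 4.21 with IL4+anti-CD40 (SE 0.218, adjusted p = 1.58e-06). Socs1 (chromosome 16, 10782240 to 10785536, − strand), the main brake on interferon and IL-4 signals, rose about equally, from 1.49 to 2.14 FPKM to 23.4 to 27.5 FPKM with LPS and 21.9 to 27.6 FPKM with IL4+anti-CD40. Its log2 fold changes were 3.77 (SE 0.133, edgeR adjusted p = 1.87e-07) and 3.68 (SE 0.152, adjusted p = 5.47e-07). Socs2 (chromosome 10, 95385362 to 95417180, − strand), the regulator of growth hormone signals, stayed low. It had 0.421, 0.404, 0.186 and 0.17 FPKM in unstimulated B cells, 0.569 to 0.736 FPKM with LPS and 0.83 to 1.13 FPKM with IL4+anti-CD40. It rose by 1.14 (SE 0.3, edgeR adjusted p = 0.00936) and 1.78 on the log2 scale (SE 0.305, adjusted p = 0.000856). The size of both values depended on the unstimulated pair. With LPS it was 0.67 against libraries 1 and 2 and 1.88 against libraries 3 and 4, and with IL4+anti-CD40 it was 1.28 and 2.51.

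**Figure D2:**
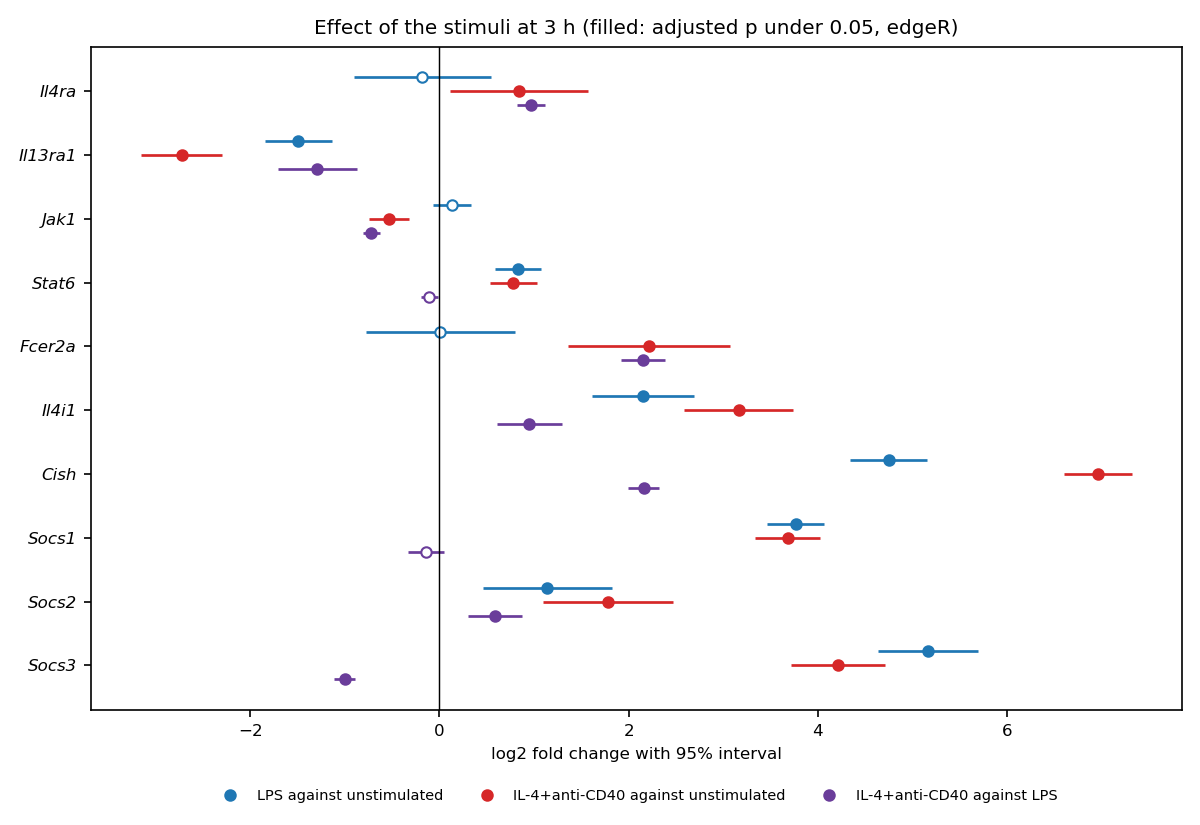
Log2 fold change (horizontal axis) with its 95% interval for the 10 genes in LPS against unstimulated, IL4+anti-CD40 against unstimulated and IL4+anti-CD40 against LPS, with filled points where the adjusted p from edgeR was under 0.05. Cish reaches 6.96 with IL4+anti-CD40, Il13ra1 lies below 0 in all 3 comparisons, and the intervals of Il4ra and Fcer2a against unstimulated B cells are wide.

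The stimuli were also compared with each other, which leaves the unstimulated libraries out. Against LPS, 5 of the 10 genes were higher with IL4+anti-CD40, 3 were lower and 2 were not called, where 17.3% of 14078 genes were higher and 22.3% lower (4712 higher and 2428 lower with library totals alone, which moved the median of all genes from 0.01 to 0.14). The 5 higher genes were Cish (log2 difference 2.16, SE 0.0742, edgeR adjusted p = 1.17e-09), Fcer2a (2.15, SE 0.107, 1.97e-08), Il4ra (0.97, SE 0.067, 3.14e-07), Il4i1 (0.95, SE 0.159, 5e-04) and Socs2 (0.59, SE 0.129, 0.00341). These include the receptor chain and the STAT6 targets Fcer2a and Il4i1, and no library of one stimulus overlapped the other for any of them. The lower genes were Il13ra1 (log2 difference -1.29, SE 0.19, edgeR adjusted p = 0.000191), Socs3 (2.01-fold lower, SE 0.0484 on the log2 scale, 1.52e-08) and Jak1 (-0.72, SE 0.0406, 5.66e-08). Socs1 differed by -0.14 (95% interval -0.33 to 0.05, edgeR adjusted p = 0.227), a value that came to -0.23 with adjusted p = 0.00747 without library 4 of IL4+anti-CD40, the highest of its group. Stat6 differed by -0.11 (SE 0.0395) and missed the threshold narrowly (edgeR, adjusted p = 0.0517). It passed with DESeq2 (0.0463), with a minimum of 10 counts in every sample (0.0445) and without library 2 of IL4+anti-CD40 (0.0498).

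The other genes of the pathway were read from hand-written lists. Of all genes tested, 29.6% rose and 33.3% fell with LPS, and 30.4% rose and 32.1% fell with IL4+anti-CD40. Between the stimuli, 17.3% were higher and 22.3% lower with IL4+anti-CD40. Of 9 other JAK kinases and STAT factors, 6 rose and 2 fell with LPS, with the largest rises in Stat2 (log2 fold change 2.45, SE 0.153) and Stat3 (2.19, SE 0.218), whereas Stat5b (-0.31) and Tyk2 (-0.26) fell. With IL4+anti-CD40, 3 rose, led by Stat5a (2.73, SE 0.114) and Stat3 (1.01, SE 0.211), and 2 fell, among them Tyk2 (-0.48). Set against LPS directly, Stat5a (0.79) and Stat5b (0.72) were the 2 of 9 that were higher with IL4+anti-CD40, and the other 7 were lower, Stat2 (-2.73) among them. Of 16 listed cytokines that feed the pathway, 7 passed the low-count filter with LPS. Of these, 6 rose and 0 fell, among them Il6 (6.05, SE 0.527). Ifnb1 had 0 counts in all 4 unstimulated libraries and 14 to 18 counts with LPS. With IL4+anti-CD40, 4 of the 16 passed the filter, and 2 of these rose, Il6 (3.70) and Il10 (2.51), and 0 fell. A gene nearly silent without stimulus passes the filter only through the stimulated libraries. Such rises were therefore in part fixed by the filter, and the counts do not describe the whole list. The gene of IL-4 itself had at most 10 counts in any library of experiment 1.

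Of 20 tested genes known to answer to IL-4 in B cells or macrophages, 13 rose and 1 fell with IL4+anti-CD40, with a median log2 fold change of 1.24 against -0.04 over all genes. For all list counts here, the shares of all genes were 30.4% risen and 32.1% fallen with IL4+anti-CD40. With LPS they were 29.6% and 33.3%. Nfil3, a bZIP factor of IgE class switching, rose by 5.54 (SE 0.394, edgeR adjusted p = 7.41e-06) and the chemokine gene Ccl17 by 4.11 (SE 0.351, 1.81e-05), and Bcl6 fell by 0.86 on the log2 scale (8e-05). With LPS, 10 of 19 rose and 3 fell, led by Il1rn (4.85) and Bcl2l1 (3.99) among the risen and Mrc1 (-2.59) and Chil3 (-1.62) among the fallen. Of the 17 tested other receptors of the pathway, 8 rose and 4 fell with IL4+anti-CD40 and 4 rose and 9 fell with LPS, and Il2ra, the high-affinity IL-2 receptor chain, rose most under both (3.46, SE 0.887, and 4.13, SE 0.917). Of the 6 partners of the SOCS box, which make up the ubiquitin ligase, 5 rose and 0 fell under each stimulus, by small amounts (Eloc 0.62 with IL4+anti-CD40 and 0.58 with LPS, Cul5 0.66 with IL4+anti-CD40, Ube2f 0.69 with LPS). Of 14 other inhibitors of JAK and STAT proteins, 6 rose and 4 fell with LPS and 7 rose and 5 fell with IL4+anti-CD40, with Ptpn2 (0.74 and 0.90) among the 2 largest rises and Pias3 (-1.44 and -1.15) and Ptpn6 (-1.43 and -1.32) as the largest falls under both. Unstimulated libraries varied widely for Il2ra (94 to 1828 counts), Bcl2l1 (139 to 625) and Ptpn6 (8738 to 21713). CD23 is shed by ADAM10 and binds CD21, the product of Cr2. Adam10 fell under both stimuli (-0.71 with LPS, SE 0.0577, and -0.53 with IL4+anti-CD40, SE 0.0652), and Cr2 was higher with IL4+anti-CD40 than with LPS by 2.30 on the log2 scale (SE 0.0892, edgeR adjusted p = 2.89e-09).

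DSF was compared with vehicle within each stimulus, and these comparisons share no library. In IL4+anti-CD40-stimulated B cells 4 of the 10 genes fell, 1 rose and 5 were not called, where 31.6% of 14275 genes fell and 30.1% rose. In LPS-stimulated B cells 4 fell, 2 rose and 4 were not called, where 36% of 14154 genes fell and 35.1% rose. These shares are near those of all genes, and the medians of the 10 genes were -0.31 and -0.12, against -0.02 and 0.00 over all genes. With library totals alone as the scaling, 5832 genes fell and 3262 rose with IL4+anti-CD40 and 6680 fell and 3473 rose with LPS. Socs3 and Fcer2a fell and Jak1 rose under both stimuli, also with that scaling. Cish and Il4ra fell with IL4+anti-CD40 and were not called with LPS, and Socs1 and Socs2 fell with LPS and were not called with IL4+anti-CD40.

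Fcer2a in IL4+anti-CD40-stimulated B cells went from 1012, 1098, 812 and 729 FPKM to 363, 368, 329 and 362 FPKM with DSF. Every DSF library lay below every vehicle library, and the log2 fold change was -1.38 (SE 0.111, edgeR adjusted p = 2.21e-06), which is 2.60-fold lower. With LPS it went from 192 to 206 FPKM to 146 to 152 FPKM, again without overlap, a fall of smaller size (-0.39, SE 0.0385, edgeR adjusted p = 1.97e-09). The LPS call was lost when all 20 libraries were fitted together (-0.40, edgeR adjusted p = 0.167). Cr2, the gene of the CD23 ligand, fell with DSF by 1.57 on the log2 scale with IL4+anti-CD40 (SE 0.0953) and by 0.52 with LPS (SE 0.0438), and Adam10 rose (0.34 and 0.17). The 8 B cell markers summed to 3965 to 4127 CPM with IL4+anti-CD40 and DSF against 4349 to 4666 CPM without DSF, and to 3715 to 3957 CPM against 4776 to 4878 CPM with LPS. Of these 8 markers, 4 fell and 3 rose with IL4+anti-CD40, and 6 fell and 1 rose with LPS. Their part in the falls of Fcer2a was not tested. Myeloid markers summed to 233 to 293 CPM with IL4+anti-CD40 and DSF against 173 to 197 CPM without DSF, and to 166 to 175 against 151 to 174 CPM with LPS. Of the 8 myeloid markers, 4 rose and 0 fell with IL4+anti-CD40, and 2 rose and 2 fell with LPS. T cell markers summed to 15.8 to 17.3 CPM with IL4+anti-CD40 and DSF against 6.65 to 9.44 CPM without it, and to 16 to 17.7 against 7.21 to 7.83 CPM with LPS. Of 9 listed T cell markers, only 3 passed the low-count filter with IL4+anti-CD40, and these 3 rose. With LPS 5 passed, of which 3 rose and 2 fell. A marker low without DSF could pass through the DSF libraries alone, so these counts do not describe the whole list. Of all genes, 30.1% rose and 31.6% fell with IL4+anti-CD40, and 35.1% and 36% with LPS.

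Cish in IL4+anti-CD40-stimulated B cells went from 23.3, 23.5, 21.9 and 21.5 FPKM to 10.8 to 11.1 FPKM with DSF. The 2 groups were tight and far apart, with a log2 fold change of -1.06 (SE 0.0473, edgeR adjusted p = 5.02e-07). With LPS it stood at 5.56, 4.46, 5.3 and 5.1 FPKM with DSF, which overlapped the vehicle libraries at 5.43, 4.64, 5.19 and 4.26 FPKM (log2 fold change 0.08, 95% interval -0.08 to 0.24, edgeR adjusted p = 0.358). Il4ra followed the same pattern. With IL4+anti-CD40 it went from 76.0, 79.0, 67.3 and 63.6 FPKM to 45.9, 45.0, 44.8 and 43.9 FPKM with DSF, a log2 fold change of -0.69 (SE 0.0648, edgeR adjusted p = 5.24e-06) with no overlap. With LPS it stood at 32.8 to 33.8 FPKM with DSF and 33.8 to 37.4 FPKM without (log2 fold change -0.06, 95% interval -0.15 to 0.02, edgeR adjusted p = 0.175). The LPS value of Il4ra was called lower without LPS library 1 or 3 (-0.11 in both cases, adjusted p = 0.0384 and 0.0324) and when all genes with any count were kept (-0.12, 0.0164). With library totals alone as the scaling it was also called, at -0.27 (edgeR, adjusted p = 2.89e-06).

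Socs3 fell by nearly the same proportion under both stimuli. With LPS its FPKM went from 133, 149, 150 and 143 to 83.5, 81.3, 75.6 and 82.7 with DSF (log2 fold change -0.81, SE 0.0447, edgeR adjusted p = 2.34e-14). With IL4+anti-CD40 they went from 75.7, 73.5, 73.7 and 74.0 to 42.5, 41.7, 43.3 and 42.6 (-0.82, SE 0.0429, adjusted p = 6.68e-07). No library overlapped in either case. Socs1 fell with LPS, from 24.1, 27.5, 24.6 and 23.4 to 17.7, 18.2, 17.8 and 18.4 FPKM (-0.45, SE 0.0521, edgeR adjusted p = 3.33e-08). With IL4+anti-CD40 it stood at 21.9, 21.9, 22.1 and 27.6 FPKM without and 23.8, 24.7, 28.3 and 28.2 FPKM with DSF, which overlapped only through vehicle library 4 (log2 fold change 0.15, SE 0.092, edgeR adjusted p = 0.188). Without that library the value was 0.24 (adjusted p = 0.0114). With LPS, Socs2 fell by 0.51 on the log2 scale (SE 0.137, edgeR adjusted p = 0.00172), and its value with IL4+anti-CD40 was -0.28 (95% interval -0.57 to 0.02, adjusted p = 0.0921), called at -0.36 without IL4+anti-CD40 library 1 (adjusted p = 0.0384) and at -0.42 with library totals alone (0.0173).

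Jak1 rose with DSF, from 84.6 to 86.8 FPKM to 106 to 116 FPKM with LPS (0.40, SE 0.0404, edgeR adjusted p = 3.29e-09) and from 52.4 to 55.7 FPKM to 63.0 to 68.6 FPKM with IL4+anti-CD40 (0.27, SE 0.0477, adjusted p = 0.000436). It kept this direction when counts were scaled by library totals alone, though at 0.19 and 0.12. Stat6 rose slightly with LPS in TMM-normalized counts (0.12, SE 0.037, edgeR adjusted p = 0.00435), but its direction flipped with total counts (-0.08, adjusted p = 0.0448), and the call was lost when all genes with any count were kept (0.06, 0.24). With IL4+anti-CD40 its log2 fold change was 0.01 (95% interval -0.09 to 0.11, edgeR adjusted p = 0.93), or -0.14 with total counts (0.0147). Il4i1 (-0.18 with LPS and -0.34 with IL4+anti-CD40) and Il13ra1 (0.06 and -0.01) were called in neither comparison, though with library totals alone Il4i1 was called lower with IL4+anti-CD40 (-0.49, edgeR adjusted p = 0.0208). With at most 100 and 66 counts per library in these 4 groups their intervals were wide: for Il13ra1 with IL4+anti-CD40 from -0.69 to 0.68.

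**Figure D3:**
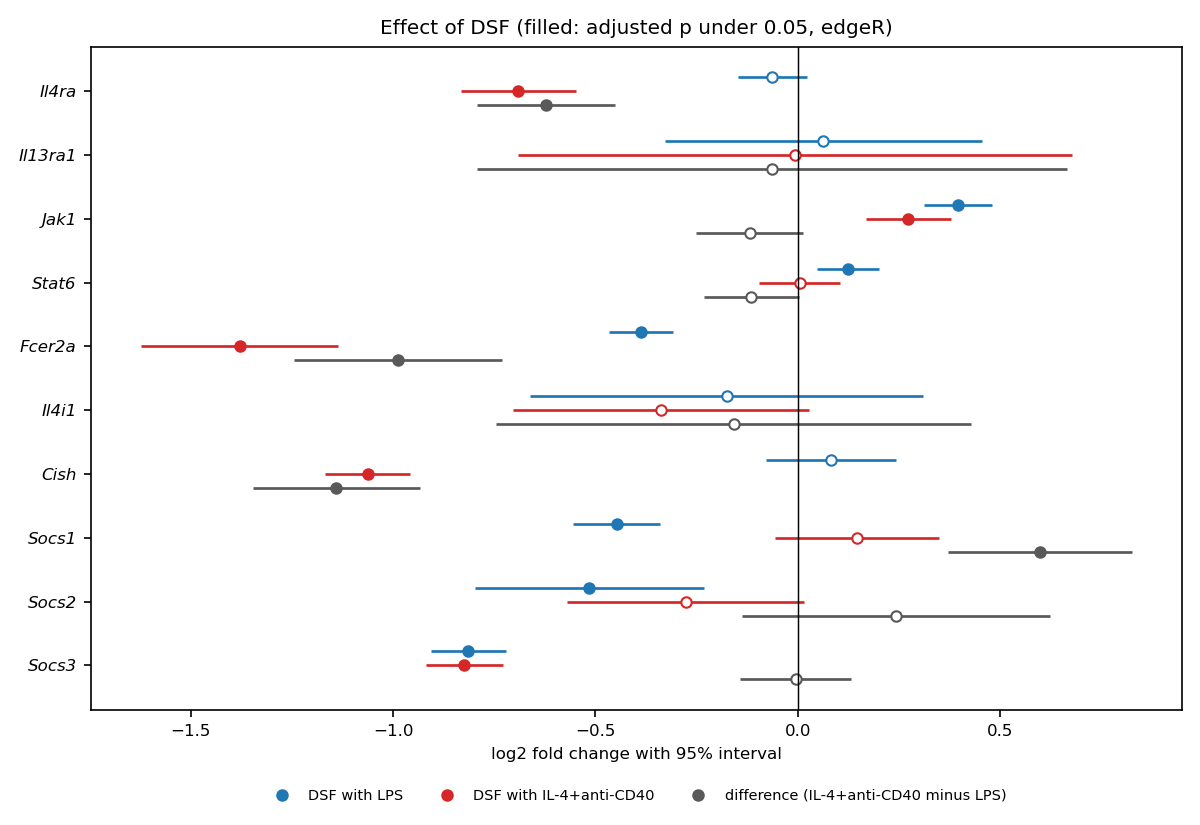
Log2 fold change with DSF (horizontal axis) and its 95% interval for the 10 genes with LPS, with IL4+anti-CD40, and for the difference between these effects, with filled points where the adjusted p from edgeR was under 0.05. Both Socs3 values lie near -0.8 and their difference spans 0, whereas the differences of Cish, Fcer2a and Il4ra lie below 0 and that of Socs1 above.

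Whether DSF acted to different degrees under the stimuli was tested as an interaction over the 16 stimulated libraries. Of the 10 genes, 3 had a lower DSF effect with IL4+anti-CD40, 1 had a higher one and 6 were not called, where 7.92% of 15130 genes were lower and 6.96% higher. The difference was -1.14 on the log2 scale for Cish (SE 0.0987, edgeR adjusted p = 1.82e-07), -0.99 for Fcer2a (SE 0.122, 1.46e-05) and -0.62 for Il4ra (SE 0.0815, 2.62e-05), and it was 0.60 for Socs1 (SE 0.109, 0.000765). For Socs3 it was -0.01, with a 95% interval of -0.14 to 0.13 (edgeR, adjusted p = 0.971), and for Jak1 -0.12 (-0.25 to 0.01, 0.23). When all 20 libraries shared 1 estimate of the spread, the less alike unstimulated libraries included, the calls of Fcer2a (adjusted p = 0.135) and Il4ra (0.332) were lost. Among the other IL-4 responsive genes 1 of 19 was higher (Bcl6, 0.70) and 5 were lower, with the largest differences in Gadd45g (-1.05) and Xbp1 (-0.80).

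Of the 9 kinases and factors beside Jak1 and Stat6, 7 fell and 2 rose with DSF and LPS, and 4 fell and 1 rose with DSF and IL4+anti-CD40. For all list counts here, the shares of all genes with DSF and LPS were 36% fallen and 35.1% risen. With DSF and IL4+anti-CD40 they were 31.6% and 30.1%, and many of the list counts are near these shares. Jak3, the kinase that pairs with JAK1 on the IL-4 receptor, fell most under both, from 21.0 ± 1.6 to 6.84 ± 0.678 FPKM with LPS (log2 fold change -1.60, SE 0.0633, edgeR adjusted p = 2.9e-17) and from 16.9 ± 1.24 to 5.91 ± 0.428 FPKM with IL4+anti-CD40 (-1.54, SE 0.0701, 5.02e-07; mean ± SD, n = 4). Stat3 fell by 0.87 and 0.52 on the log2 scale, and Jak2 rose (0.51 and 0.20), as did Stat2 with LPS (0.42). Of the 17 other receptors, 6 fell and 7 rose with LPS and 7 fell and 7 rose with IL4+anti-CD40. Il2ra (-1.22 and -1.58), Il21r with LPS (-1.25) and Il9r with IL4+anti-CD40 (-1.65) were the largest falls, and Il7r (1.49 and 0.82) and Ifnar1 (1.10 and 0.89) the largest rises. Of the IL-4 responsive genes, 7 of 18 fell and 7 rose with LPS, and 8 of 19 fell and 5 rose with IL4+anti-CD40. The log2 value of Nfil3 fell by 1.18 with LPS and by 1.81 with IL4+anti-CD40 (SE 0.0776 and 0.119), Ccl22 by 1.18 with LPS and Mrc1 by 1.75 with IL4+anti-CD40. Of the 14 other inhibitors, 5 fell and 7 rose with LPS and 4 fell and 8 rose with IL4+anti-CD40, led by Pias4 (1.23 and 0.90), and of the 6 SOCS box partners 3 and 2 fell and 2 and 2 rose, with Eloc highest (0.72 and 0.58). Of the 16 listed cytokine genes, 7 were tested with LPS, of which 3 fell and 1 rose. Il27 (by 0.52) and Il10 (by 0.42 on the log2 scale) were among the fallen. With IL4+anti-CD40, 6 were tested and 1 fell (Il6, -0.81).

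Against unstimulated B cells, the genes raised by a stimulus remained mostly raised in the presence of DSF. With IL4+anti-CD40 and DSF, 6 rose, 2 fell and 2 were not called (33.4% of 14678 genes rose and 35.3% fell). Cish was still 5.91 above unstimulated on the log2 scale, Socs1 3.84, Socs3 3.40, Il4i1 2.83 and Socs2 1.51 (edgeR adjusted p from 6.32e-08 to 0.00184). Il4ra was at 0.17 (edgeR, adjusted p = 0.649), with 0.93 against unstimulated libraries 1 and 2 and -0.35 against libraries 3 and 4, and Fcer2a at 0.85 (0.0519), with 1.71 against unstimulated libraries 1 and 2 and 0.30 against libraries 3 and 4 (edgeR, adjusted p = 2.7e-11 and 0.000937). Every DSF library lay above every unstimulated one for Fcer2a, and its rise was called without unstimulated library 3 or 4 (1.09 and 1.05, adjusted p = 0.0207 and 0.0281), with DESeq2 (0.0156), with DESeq2 size factors in edgeR (0.0478), with all 20 libraries in the fit (0.00449) and with a replicate block (0.0345). The fall of Jak1 (-0.25, edgeR adjusted p = 0.0403) was lost without unstimulated library 1 or 2 and without any 1 of the 4 DSF libraries, with adjusted p from 0.0569 to 0.108. With LPS and DSF, 6 rose, 1 fell and 3 were not called (34.3% of 14663 genes rose and 37.3% fell), with Cish at 4.8, Socs3 at 4.32, Socs1 at 3.29, Il4i1 at 1.95, Stat6 at 0.93 and Jak1 at 0.50 (0.09 and not called with total counts) among the risen and Il13ra1 at -1.45. Socs2 was at 0.59 (edgeR, adjusted p = 0.11), with 0.08 against unstimulated libraries 1 and 2 and 1.31 against libraries 3 and 4. Il4ra was at -0.27, or 0.49 against libraries 1 and 2 and -0.79 against libraries 3 and 4, and Fcer2a at -0.40, or 0.45 and -0.95. Between the DSF groups, 6 genes were higher and 4 lower with IL4+anti-CD40 than with LPS (23.3% of 14352 genes higher and 21.8% lower). Fcer2a (1.22, SE 0.0481), Cish (1.08, SE 0.0618), Socs2 (0.89), Il4i1 (0.85), Socs1 (0.52) and Il4ra (0.41) were higher, and Il13ra1 (-1.30), Socs3 (-0.95), Jak1 (-0.78) and Stat6 (-0.16, or -0.03 and not called with total counts) were lower.

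The order of mean FPKM over the 5 groups differed among the genes. Cish ran from IL4+anti-CD40 at 22.6 ± 1.01 through IL4+anti-CD40 with DSF at 11 ± 0.16, LPS with DSF at 5.11 ± 0.472 and LPS at 4.88 ± 0.53 to unstimulated at 0.183 ± 0.0489 (mean ± SD, n = 4), and of these neighbours only the LPS groups overlapped. Fcer2a ran from 913 ± 171 and 355 ± 17.7 with IL4+anti-CD40 without and with DSF to LPS at 199 ± 5.77, unstimulated at 198 ± 105 and LPS with DSF at 150 ± 2.53, and the last 3 overlapped in turn. Socs3 ran from LPS at 144 ± 7.69 through LPS with DSF at 80.8 ± 3.56, IL4+anti-CD40 at 74.2 ± 1.04 and IL4+anti-CD40 with DSF at 42.5 ± 0.645 to unstimulated at 4.05 ± 1.23, with overlap between the second and the third. Jak1 was highest with LPS and DSF at 111 ± 5.25 and lowest with IL4+anti-CD40 at 53.8 ± 1.67, the reverse end from Fcer2a. Among all 15574 other genes, the ones whose log2 CPM followed Cish most closely over the 20 libraries were Stat5a (Pearson r = 0.989), Slc43a3 (0.978) and Anp32b (0.977). Socs3 was followed by Cdk5r1 (0.991), Eef1e1 (0.982) and Plscr1 (0.978), Fcer2a by Sypl (0.966), Dock10 (0.965) and Foxn3 (0.957), and Il4i1 by Repin1 (0.983), Mtpap (0.974) and Stat5a (0.974). Within the 10 genes the highest r was 0.961, between Cish and Il4i1, then 0.943, between Il4ra and Fcer2a. The 20 libraries fall into the 5 groups, so these values are a description of group differences. By Spearman's rho, 0 of the 3 genes named for Cish, 0 for Socs3, 2 for Fcer2a and 1 for Il4i1 were again among the closest 3.

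Experiment 2 gave 1 library per condition and so no test. Its values are log2 ratios of TMM-normalized counts with a prior count of 2, set beside the range of the same ratio over all 16 library pairs of experiment 1, and a gene was counted as moved at 2-fold or more. The experiments were normalized separately. The share of all genes outside such ranges was not counted, so whether the 10 genes stand out in this cannot be told. With IL4+anti-CD40, 7 of the 10 genes were at least 2-fold higher and 1 lower, where 10.7% of 14275 genes were higher and 13.7% lower. Cish (65 counts unstimulated, 2192 stimulated) had a log2 ratio of 5.26 and Socs3 (304 and 3690 counts) one of 3.82. Fcer2a stood at 3.03 (4637 and 32332 counts), Socs1 at 1.93, Il4ra at 1.42 and Jak1 at -0.70. Of these 10 ratios 7 lay within the range of experiment 1, and those of Cish, Socs1 and Il13ra1 lay nearer to 0.

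The LPS library of experiment 2 differed from those of experiment 1 in these genes. At 2-fold, 4 genes were higher and 1 lower against unstimulated, where 8.62% of genes were higher and 9.88% lower. Of the 10 ratios, 8 lay outside the range of experiment 1. That of Il4i1 did so narrowly, at 1.66 against 1.69 to 2.68, from 12 and 3 counts. Socs1 had 262 counts with LPS and 469 without, a log2 ratio of -0.60 against 3.44 to 4.20 in experiment 1. Socs3 had 765 and 304 counts (1.57 against 4.68 to 5.78), and Cish had 192 and 65 (1.77 against 4.02 to 5.11). Fcer2a went the other way, with 17134 counts with LPS and 4637 without (2.13 against -0.62 to 0.97). Stat2 (3526 and 6851 counts, -0.72), which rose with LPS in experiment 1, was lower as well. Il6 (121 and 10 counts, 3.58) and Il10 (301 and 83 counts, 2.07) were higher. These 3 genes are named after their values were seen. Set directly against LPS, IL4+anti-CD40 gave 4 genes at least 2-fold higher and 0 lower (4.04% and 4.92% of all genes), and 10 of 10 ratios outside the range of experiment 1. Socs3 stood at 2.26, where experiment 1 gave -1.09 to -0.87.

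DSF in experiment 2 lowered 4 of the 10 genes by 2-fold or more with IL4+anti-CD40 and raised 0, where 20.3% of genes were lower and 21.9% higher. Fcer2a went from 32332 to 7594 counts (log2 ratio -1.71, against -1.67 to -0.98 over the library pairs of experiment 1). Cish went from 2192 to 563 counts (-1.58, against -1.06 to -0.94) and Socs3 from 3690 to 870 (-1.71, against -0.82 to -0.70). For these 3 genes the direction was that of experiment 1 and the size was larger. Socs1, which was not called in experiment 1, went from 1525 to 293 counts (3.99-fold lower, where the log2 ratios of experiment 1 ran from -0.20 to 0.44), and Il4ra stood at -0.38, Jak1 at 0.69 and Jak3 at -1.70. With LPS, 2 were higher and 1 lower with DSF, where 20.3% and 19.5% of genes were, and 10 of 10 ratios lay outside the range of experiment 1. That of Il4i1 did so narrowly, at 0.29 against at most 0.25, from 14 and 12 counts. Cish rose from 192 to 588 counts (1.71, against -0.28 to 0.37), Socs3 had 763 counts with DSF and 765 without (0.10, or -0.21 with library totals alone, against -0.99 to -0.67), and Socs1 went from 262 to 92 counts (-1.39). Fcer2a (-0.77), Jak1 (0.49) and Jak3 (-1.10) kept the direction of experiment 1. Socs2 and Stat6, both called with DSF and LPS in experiment 1, took the opposite sign. Socs2 had 117 counts with DSF and 78 without (0.675, against -0.845 to -0.214), and Stat6 stood at -0.157 (against 0.0683 to 0.137).

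**Figure D4:**
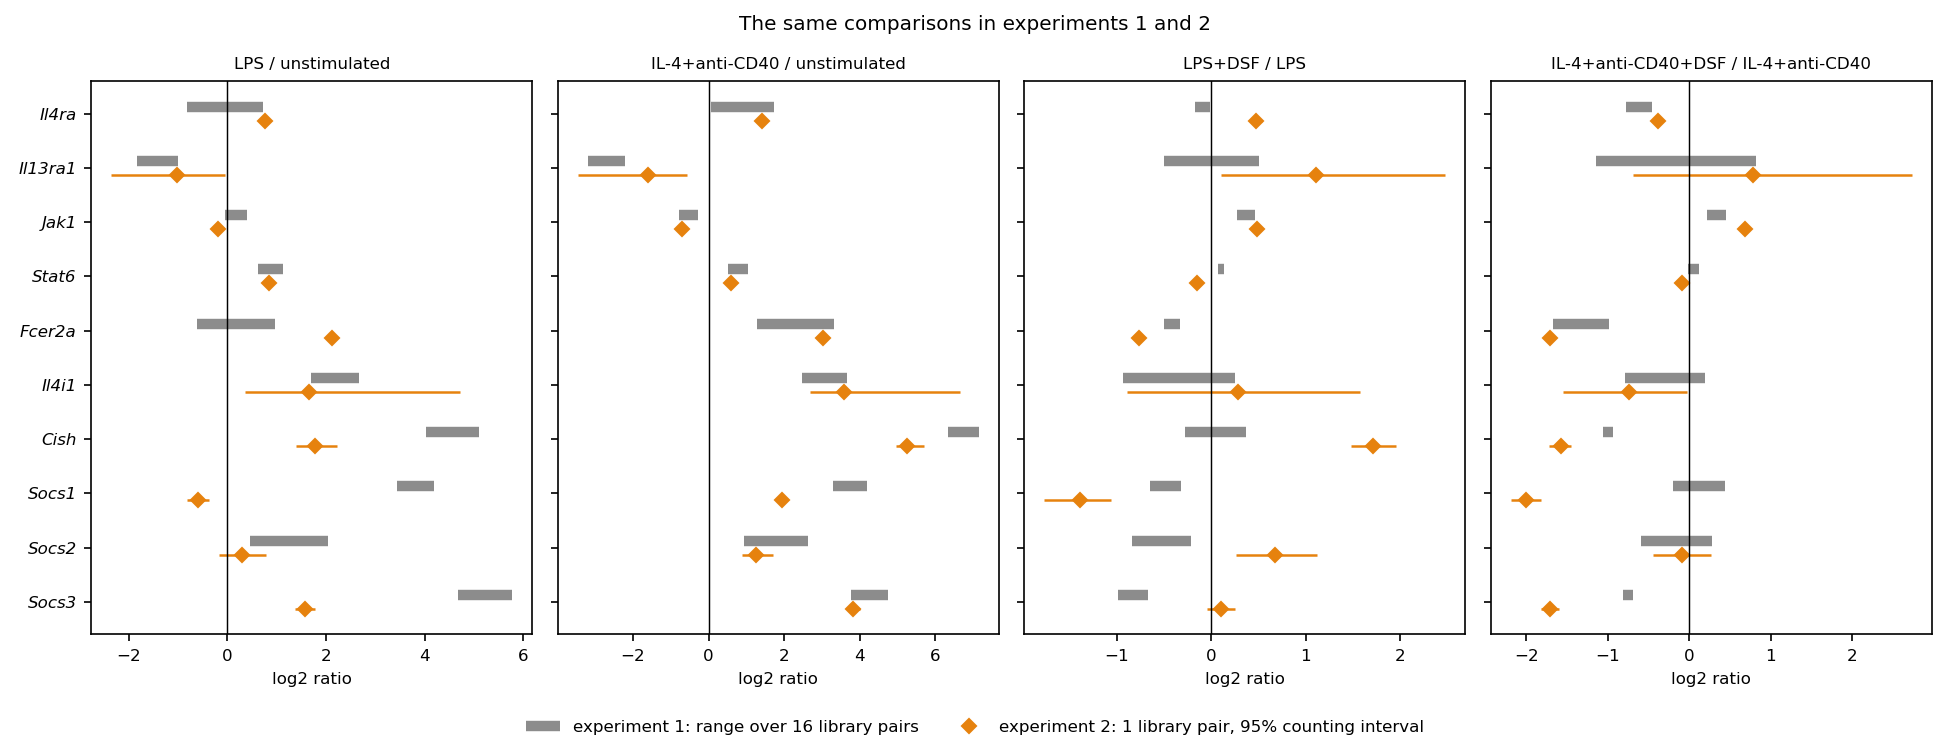
Log2 ratios (horizontal axes) of the 10 genes in 4 comparisons, with grey bars for the range over the 16 library pairs of experiment 1 and diamonds for the single pair of experiment 2 with its 95% counting interval. For IL4+anti-CD40 against unstimulated 7 of 10 diamonds fall within the bars, and for LPS with and without DSF 0 of 10 do.

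Ibrutinib, tested at the same 1 μM in experiment 2, gave smaller ratios to vehicle than DSF did for Fcer2a, Cish and Socs1 under both stimuli, and a larger one for Socs3 with LPS. At 2-fold, 0 genes moved with LPS (2.81% of all genes were higher and 2.47% lower), and with IL4+anti-CD40 1 was higher and 0 lower (2.23% and 1.69%), which was Il13ra1 with 20 counts against 6. Cish stood at -0.82 with LPS (141 against 192 counts) and -0.65 with IL4+anti-CD40 (1977 against 2192 counts in a deeper library). Fcer2a stood at 0.69 and 0.54, the opposite sign from DSF, whose ratios were -0.77 and -1.71. Socs1 stood at -0.53 and -0.61, Socs3 at -0.64 and -0.27, Il4ra at -0.22 and 0.13, Stat6 at 0.15 and 0.13, and Jak1 at 0.44 and 0.20. Cr2 was 2-fold or more lower with ibrutinib under both stimuli (-1.06 and -1.38). With 1 library per condition these differences between the compounds have no replicate check.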

How the data were processed

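Negatively selected splenic B cells were cultured for 3 h, and poly-A RNA was sequenced in 27 libraries. As described by the study, the authors used Fastp for trimming and HISAT2 2.0.5 for mapping to mm10, and made the deposited counts per gene with featureCounts 1.5.0-p3, and the deposited FPKM values were computed by the authors from these counts and the gene length. The annotation release and the strand setting are not given in the sources used here. No molecular identifiers are named, so intervals on counts cover counting error only.

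Groups were taken from the labels, and 0 columns stayed unmapped. Each of the 8 pairwise comparisons of experiment 1 was fitted on its 8 libraries with edgeR 4.0.16 (R 4.3.3, limma 3.58.1): filterByExpr, TMM normalization, glmQLFit and glmQLFTest, with Benjamini-Hochberg adjustment over all genes tested and a threshold of 0.05. The difference of the DSF effects was an interaction term over 16 libraries. SE and 95% intervals came from the quasi-likelihood F statistic. P-values measure the spread between these libraries, which may in part be technical. Experiment 2 was described by log2 ratios (TMM, prior count 2, genes whose mean count was at least 10). The fits were checked on simulated data. DESeq2 1.42.0, other scalings, filters, fits and left-out libraries were tried as alternatives.

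The 10 genes and all lists were chosen with earlier results of these data known. From each other list, up to 2 genes with the largest rise and 2 with the largest fall among those called were named, and for Cish, Socs3, Fcer2a and Il4i1 the 3 genes with the highest Pearson r of log2 CPM. A gene that this rule would name is not reported here. Coordinates are from GENCODE vM21 on GRCm38, in which all 10 genes stand as in the deposited tables. Promoters are from RefSeq. Lists of B cell, T cell, myeloid, neutrophil, NK cell and erythroid markers were summed as CPM.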

Additional observations from a re-analysis of the deposited data

Results flagged for a closer look

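Within groups of 4 libraries, 3 of 50 sets of FPKM values had 1 library farther from the rest than the 95% critical value of Dixon's test for 4 values allows, where chance gives about 1 in 20, or 2.5. Socs1 with IL4+anti-CD40 was highest in library 4, at 27.6 FPKM against 21.9 to 22.1 in the others (ratio of gap to range 0.967). Fcer2a with IL4+anti-CD40 and DSF was lowest in library 3, at 329 FPKM against 362 to 368 (0.864). Il4i1 in unstimulated B cells was lowest in library 4, at 0.0644 FPKM against 0.123 to 0.129 (0.907), which is 6 counts against 13 to 14.

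The effect of DSF differed between the stimuli for 4 of the 10 genes in edgeR's interaction test, where 7.92% of 15130 genes were lower and 6.96% higher. The DSF effect with IL4+anti-CD40 minus that with LPS was -1.14 on the log2 scale for Cish, -0.987 for Fcer2a, -0.623 for Il4ra and 0.599 for Socs1. The calls of Fcer2a and Il4ra were lost when all 20 libraries shared 1 fit. In experiment 2, with 1 library per condition, the DSF ratios of Cish, Fcer2a and Il4ra were also lower with IL4+anti-CD40 than with LPS. Socs1 had the reverse order from experiment 1, with log2 ratios of -2 with IL4+anti-CD40 and -1.39 with LPS. Socs3, not called in the interaction test, stood at -1.71 and 0.10 there.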

How the results depend on the processing

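Most counts of the 10 genes called were within 1.5 times the main count, in 155 of the 168 values from other settings named in the methods. The exceptions follow, and their cause was not tested unless named. Scaling by total counts, which moved the median log2 fold change of all genes to between -0.43 and 0.14, gave DSF in LPS-stimulated cells 1 gene higher, DSF in IL4+anti-CD40-stimulated cells 7 lower, and a Stat6 value with DSF of -0.0836 with LPS and -0.143 with IL4+anti-CD40. In experiment 2 the same scaling gave 1 higher and 2 lower for DSF with LPS. Keeping all genes with any count, or fitting all 20 libraries at once, also gave 1 higher for DSF with LPS, and the fit of 20 gave 1 lower for the difference of the DSF effects. With DESeq2 size factors, IL4+anti-CD40 with DSF against unstimulated had 1 lower. A mean of at least 100 counts in experiment 2, which removes the low genes, left 0 lower for each stimulus, 1 higher for DSF with LPS and 0 higher for ibrutinib with IL4+anti-CD40. Against unstimulated libraries 3 and 4 alone, 3 genes were lower with LPS, with Fcer2a at -0.51, 3 were lower with LPS and DSF, and Il4ra stood at -0.346 with IL4+anti-CD40 and DSF. Against libraries 1 and 2 alone, Il4ra stood at 0.626 with LPS and 0.491 with LPS and DSF, and Fcer2a at 0.454 with LPS and DSF. Leaving out 1 library in turn gave 1 to 2 higher for DSF with IL4+anti-CD40 (2 without vehicle library 4, which adds Socs1) and 1 to 2 lower for IL4+anti-CD40 with DSF against unstimulated.

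Libraries share replicate numbers, and the deviations of same-numbered libraries correlated between -0.056 and 0.0302, except for DSF with IL4+anti-CD40 (-0.0404 to 0.169, 2 of 4 pairs over 0.1, 4 of 8 libraries closest to their own number), so the numbers were not taken to pair the libraries. With a replicate block, IL4+anti-CD40 against unstimulated had 7 genes higher, with Il4ra at 0.99 and an adjusted p of 0.052 from edgeR, and IL4+anti-CD40 with DSF against unstimulated had 7 higher and 1 lower. Depth limits Il4i1 and Il13ra1 most, with 6 to 100 and 11 to 210 counts per library in experiment 1 and as few as 3 and 6 in experiment 2.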

Other observations

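Neutrophil markers (6 genes) summed to 41.7 to 43.2 CPM in unstimulated libraries 1 and 2, to 10.6 to 15.2 CPM in libraries 3 and 4, and to 8.18 to 14.3 CPM in the other groups, where Ly6g was at 0 with IL4+anti-CD40 and DSF. Erythroid markers ran the other way, at 2.9 to 3.56 CPM in unstimulated libraries 1 and 2, 20.9 to 22.0 CPM in libraries 3 and 4 and 1.57 to 4.02 CPM elsewhere. NK cell markers summed to 1.62 to 6.74 CPM in all libraries of experiment 1, with Ncr1 at 0 with LPS, and T cell markers to 11.4 to 16.4 CPM in unstimulated B cells. Cr2, the gene of the CD23 ligand, varied more among the unstimulated libraries than Fcer2a did, from 2691 to 22440 counts.

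The IL4-responsive gene Nfil3 moved in the same direction in both experiments. It stood at 1.9 FPKM in unstimulated B cells, 86.9 with IL4+anti-CD40 and 25.1 with IL4+anti-CD40 and DSF as means of experiment 1. In experiment 2 it had 114, 3561 and 235 counts in these conditions, log2 ratios of 5.17 for the stimulus and -3.54 for DSF.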
